A study of Mus musculus with 2 samples.

Results

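The matrix metalloproteinase (MMP), ADAMTS and TIMP genes were followed in CT26, a mouse colon carcinoma cell line. The genes were taken by name and class: protein-coding entries whose symbol begins with Mmp, Adamts or Timp followed by a digit. This gave 45 of the 54532 genes in the deposited table, 22 MMP genes, 19 ADAMTS genes and 4 TIMP genes. Mmp1a, listed there as a polymorphic pseudogene, was outside the rule and had 0 reads in both libraries. The Oct4 and SOX2 cells were CT26 cells given lentivirus for mouse Oct4 and human SOX2. The control cells were CT26 cells given lentivirus with the empty expression vector, and their genotype is labelled wild type. Both cultures were grown for 4 days in the same medium with serum, and RNA was taken after trypsin had been used to lift the cells. Each group has a single library, so every difference below is one between 2 libraries, with no replicate to check it.

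MMPs are zinc proteases that cut collagens and other matrix proteins, and most are secreted as inactive precursors or held at the cell surface. ADAMTS proteins are related secreted zinc proteases with thrombospondin repeats, which cut proteoglycans, procollagens and von Willebrand factor. TIMPs bind the active site of MMPs one to one and block it, and TIMP3 is the member known to block several ADAMTS enzymes as well. In tumours these genes are known for their part in invasion, and much of the MMP supply there comes from stromal and immune cells, which a cell line culture lacks. Transcripts were measured here, not protein, precursor activation or enzyme activity.

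The libraries held 31521115 gene-assigned reads for Oct4 and SOX2 and 32262408 for the control. Pou5f1, the gene for Oct4, had 12406 reads in the Oct4 and SOX2 library and 0 in the control. Mouse Sox2 had 1525 reads against 929, and since the vector carries human SOX2 these reads cannot tell its source. Of 10 colon epithelial markers 4 reached 1 FPKM in either library, while Cdh1 had 0 reads in both and Epcam had 2 reads with Oct4 and SOX2 and 1 in the control. Of 10 fibroblast markers 5 reached 1 FPKM, with a summed level of 360.2 FPKM with Oct4 and SOX2 and 269 FPKM in the control, most of it Col1a2. None of 8 neutrophil or 8 endothelial markers did, and of 10 macrophage markers 2 did, Cd14 and Cd68, with Adgre1 and Tyrobp at 0 reads in both libraries. Whether a difference reflects fewer cells of a kind or less RNA per cell cannot be told apart in bulk RNA, and the part of these markers in the results below was not tested.

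The promoters of 6 members are shown because the results turn on them. Timp1 and Adamts1 had the largest ratios above 1 among the expressed members, Mmp13 and Mmp11 the lowest, and Mmp3 and Mmp10 are the expressed neighbours of Mmp13. Each runs 5′ to 3′ on the gene's strand from 250 bases before the RefSeq start to 50 after it, in build GRCm38.p6. Capitals mark the AP-1 motif TGANTCA, its variant TGAGTAA, the PEA3 motif AGGAAG of ETS factors, and the TATA box TATAAA. They were searched on both strands, and AGGAAG contains the ETS core GGAA.
Timp1, chrX:20869916-20870215, plus strand: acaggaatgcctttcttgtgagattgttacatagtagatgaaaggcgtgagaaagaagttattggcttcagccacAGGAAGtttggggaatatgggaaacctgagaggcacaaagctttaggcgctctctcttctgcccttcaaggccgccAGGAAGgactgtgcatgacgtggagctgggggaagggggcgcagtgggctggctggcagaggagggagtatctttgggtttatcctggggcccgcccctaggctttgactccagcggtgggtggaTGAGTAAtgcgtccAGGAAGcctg
Adamts1, chr16:85803064-85803363, minus strand: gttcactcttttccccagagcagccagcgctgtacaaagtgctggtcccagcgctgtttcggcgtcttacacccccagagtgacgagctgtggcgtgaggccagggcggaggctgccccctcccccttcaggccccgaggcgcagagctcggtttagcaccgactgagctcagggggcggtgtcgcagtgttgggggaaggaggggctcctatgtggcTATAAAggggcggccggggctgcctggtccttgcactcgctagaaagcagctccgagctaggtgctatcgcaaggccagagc
Mmp11, chr10:75932453-75932752, minus strand: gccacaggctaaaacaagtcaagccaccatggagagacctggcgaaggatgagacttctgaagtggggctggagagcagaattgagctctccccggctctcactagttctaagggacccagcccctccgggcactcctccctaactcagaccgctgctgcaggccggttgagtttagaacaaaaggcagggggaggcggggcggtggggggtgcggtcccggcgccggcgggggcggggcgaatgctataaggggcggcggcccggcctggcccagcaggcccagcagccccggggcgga
Mmp13, chr9:7272264-7272563, plus strand: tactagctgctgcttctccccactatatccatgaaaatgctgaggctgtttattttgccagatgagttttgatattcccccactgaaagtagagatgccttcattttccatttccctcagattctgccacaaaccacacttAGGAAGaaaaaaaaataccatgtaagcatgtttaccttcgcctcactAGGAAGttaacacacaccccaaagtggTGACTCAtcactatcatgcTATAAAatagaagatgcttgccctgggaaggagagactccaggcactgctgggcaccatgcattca
Mmp3, chr9:7445572-7445871, plus strand: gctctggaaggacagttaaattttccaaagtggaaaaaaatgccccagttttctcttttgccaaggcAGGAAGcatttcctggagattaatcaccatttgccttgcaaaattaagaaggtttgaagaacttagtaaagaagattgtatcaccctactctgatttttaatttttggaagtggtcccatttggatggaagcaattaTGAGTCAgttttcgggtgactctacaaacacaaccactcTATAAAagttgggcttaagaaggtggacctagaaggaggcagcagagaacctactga
Mmp10, chr9:7502092-7502391, plus strand: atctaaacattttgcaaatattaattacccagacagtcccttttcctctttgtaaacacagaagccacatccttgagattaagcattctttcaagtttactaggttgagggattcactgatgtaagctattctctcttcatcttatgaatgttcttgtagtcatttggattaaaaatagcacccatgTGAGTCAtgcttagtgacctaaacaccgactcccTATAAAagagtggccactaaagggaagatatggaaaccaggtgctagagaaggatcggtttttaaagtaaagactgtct

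Of the 14 members with at least 1 FPKM in either library, Timp1 was the one past 2-fold on the FPKM + 1 scale, with 230.0 FPKM under Oct4 and SOX2 against 100.4 FPKM in the control. FPKM scales the reads of a gene to its length and to library depth, so levels can be compared between genes. Among the 12 expressed proteases none passed 2-fold, and they lay on both sides: 5 had a higher level with Oct4 and SOX2, led by Adamts1, and 7 a lower one, led by Mmp13 and Mmp11. With the TIMPs this makes 6 of 14 members above a ratio of 1 and 8 below it, beside 48.4% and 51.6% of protein-coding genes. Summed over each family, TIMP transcripts stood at 359 FPKM with Oct4 and SOX2 and 233 FPKM in the control, MMP transcripts at 45.3 and 54.9 FPKM, and ADAMTS transcripts at 47.1 and 31.4 FPKM. The TIMP difference rests on Timp1: without it the ratio of the TIMP sums was 0.971, beside 1.07 for all proteases. In reads not divided by gene length the ratios were 1.17 for TIMP genes and 1.14 for proteases.

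Of the 45 genes 14 reached 1 FPKM in at least 1 library and are called expressed here: 2 TIMP, 7 MMP and 5 ADAMTS genes. Another 6 stayed under 1 FPKM but had at least 10 reads in 1 library, 13 had 1 to 9 reads at most, and 12 had 0 reads in both. Nearest the filter, Adamts4 lay just inside with 1.26 FPKM in the Oct4 and SOX2 library and 0.866 in the control, and Mmp23 just outside with 0.134 and 0.723 FPKM. The size rule was a 2-fold ratio of FPKM + 1. By it 1 of the 14 expressed members was higher and 0 were lower. Over all 10276 protein-coding genes with at least 1 FPKM, 1.39% were at least 2-fold higher and 1.07% at least 2-fold lower, and over all 12401 genes 2.42% and 1.85%. At 4-fold 0 members passed in either direction, beside 0.302% of protein-coding genes higher and 0.107% lower. Just inside 2-fold lay Timp1 with a log2 ratio of FPKM + 1 of 1.19. Just outside lay Adamts1 at 0.87 on the higher side and Mmp13 at -0.75 on the lower. No p-value was computed for any rule, as there is no replicate. The expressed members had a median log2 ratio of FPKM + 1 of -0.09, beside -0.01 over all protein-coding genes tested.

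**Figure D1:**
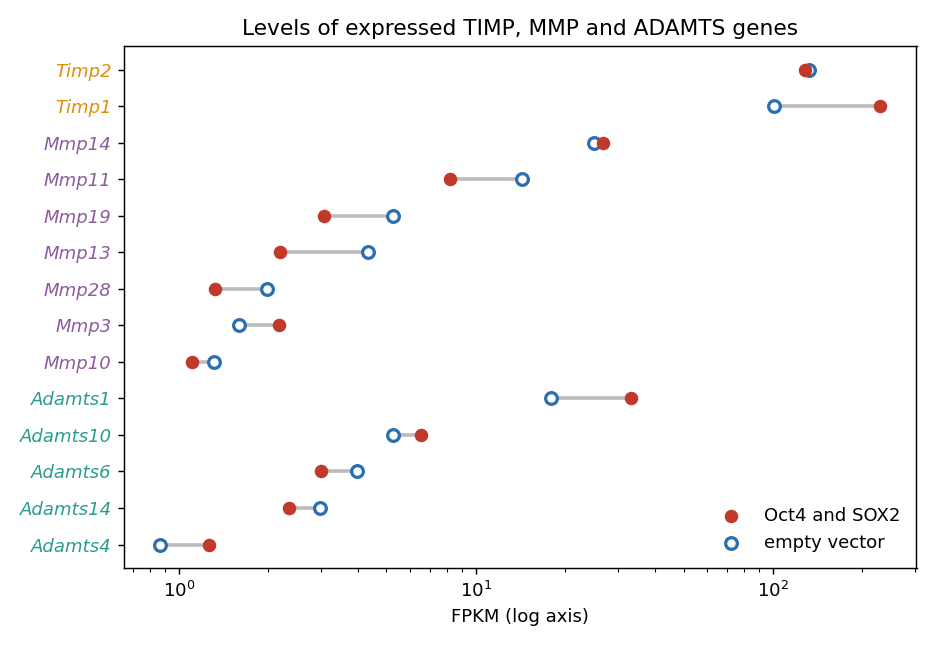
FPKM of the 14 expressed members in the Oct4 and SOX2 library (filled red) and the empty-vector control (open blue), 1 library each, on a log axis, with TIMP, MMP and ADAMTS symbols in separate colours. Timp1 is the widest pair among the TIMPs, at 230.0 and 100.4 FPKM, and Adamts1 the widest among the ADAMTS genes at 33.4 and 17.8 FPKM.

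Timp1 encodes a secreted inhibitor of most soluble MMPs and is known to be inducible by growth factors and AP-1. It had 6507 reads with Oct4 and SOX2, against 2845 reads in the control. The FPKM ratio was 2.29, with a 95% counting interval of 2.19 to 2.40, which lies wholly beyond 2-fold. Of protein-coding genes 1.63% had their interval beyond 2-fold on the higher side and 1.33% on the lower. Low read numbers were more often even than odd, which would follow if both mates of a read pair had been counted, so an interval was also taken from 0.5 of the reads. For Timp1 it was 2.15 to 2.44. In rank, Timp1 was number 138 of the 22046 protein-coding genes with Oct4 and SOX2 and number 387 in the control. Timp1 (ENSMUSG00000001131) lies on the plus strand of chromosome X from 20870166 to 20874735 in GRCm38, and its principal transcript has 6 exons. It sits inside Syn1, a synapsin gene on the opposite strand, with which it shares 0 exonic bases. Syn1 itself had 21 reads with Oct4 and SOX2 and 23 in the control.

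Timp2, whose protein also takes part in the activation of pro-MMP2 by MMP14, was the most abundant member in the control. Under Oct4 and SOX2 it came next after Timp1 among the members, at number 276 of the protein-coding genes. Its level was 128.6 FPKM with Oct4 and SOX2 and 132 FPKM in the control, from 15961 and 16459 reads. The ratio of 0.971 had a counting interval of 0.9505 to 0.9929, which reached 1.002 when taken from 0.5 of the reads. Timp2 (ENSMUSG00000017466) is on the minus strand of chromosome 11 from 118301069 to 118355740. The quotient of Timp1 to Timp2 was 1.79 with Oct4 and SOX2 and 0.758 in the control, so the order of these genes by level differed between the libraries.

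Timp3, the matrix-bound inhibitor, was near the detection limit with 12 reads in the Oct4 and SOX2 library and 15 in the control, or 0.0462 and 0.0577 FPKM. Its ratio of 0.801 had an interval of 0.343 to 1.83, so no difference was detectable at this depth. Timp3 shares 1733 of its exonic bases with Syn3 on the opposite strand, and whether counting used strand is not given in the sources used here. Timp4 had 0 reads in both libraries, which allows up to 0.0160 FPKM with Oct4 and SOX2 and 0.0159 FPKM in the control by a floor of 3 reads. The bound would be higher if both mates of a pair were counted.

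Mmp14 encodes the membrane-bound collagenase MT1-MMP and was the most abundant MMP transcript in both libraries. It stood at 26.8 FPKM with Oct4 and SOX2 and 25.02 FPKM in the control, from 5088 and 4759 reads. The ratio of 1.07 had an interval of 1.03 to 1.11. Mmp14 (ENSMUSG00000000957) lies on chromosome 14 from 54431612 to 54445364. It made up 59.2% of the summed MMP level with Oct4 and SOX2 and 45.6% in the control. The other membrane-type genes were scarcely read: Mmp24 had 10 reads with Oct4 and SOX2 and 6 in the control, and Mmp15, Mmp16 and Mmp25 had under 10 in either library. Mmp24 shares 637 exonic bases with BC029722 on the opposite strand, which had 712 reads with Oct4 and SOX2 and 563 in the control. Mmp17 had 0 reads in both.

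Of the 6 expressed secreted MMPs 5 had a log2 ratio of FPKM + 1 below 0, beside 51.6% of protein-coding genes, and 0 passed 2-fold. The interval of Mmp10 included 1. Mmp11, Mmp19 and Mmp28 share exonic bases with genes on the opposite strand, and without the proteases that overlap another gene the ratio of the MMP sums was 0.978, in place of 0.824. Mmp13 encodes a collagenase that cuts fibrillar collagens. It was at 2.18 FPKM with Oct4 and SOX2 and 4.35 FPKM in the control, from 186 and 371 reads. Its ratio of 0.502, with an interval of 0.419 to 0.601, lay at the edge of 2-fold, and on the FPKM + 1 scale its log2 ratio was -0.75. Mmp11, stromelysin 3, is processed inside the cell by furin and is best known from tumour stroma. It was at 8.20 FPKM with Oct4 and SOX2 and 14.3 FPKM in the control, from 726 and 1270 reads, a ratio of 0.573 (0.522 to 0.628).

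Mmp11 (ENSMUSG00000000901, chromosome 10 from 75923222 to 75936496) shares 155 exonic bases with Chchd10 on the opposite strand. Chchd10 had 5 reads with Oct4 and SOX2 and 87 in the control, and the part of this overlap in the Mmp11 ratio was not tested. Mmp19, a broadly acting MMP with basement membrane substrates, had 3.07 FPKM with Oct4 and SOX2 and 5.26 FPKM in the control, a ratio of 0.585 (0.510 to 0.669). It shares 789 exonic bases with Tmem198b on the opposite strand, which had 389 reads with Oct4 and SOX2 and 332 in the control, and whether such reads were told apart by strand is not known. Mmp28, epilysin, stood at 1.32 FPKM with Oct4 and SOX2 and 1.98 FPKM in the control, a ratio of 0.666 (0.543 to 0.816), and shares 466 exonic bases with 1700020L24Rik.

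The stromelysins Mmp3 and Mmp10 are close relatives that cut proteoglycans, laminin and other MMP precursors. Mmp3 was at 2.18 FPKM with Oct4 and SOX2 and 1.60 FPKM in the control, from 125 and 92 reads. Its ratio was 1.36 with an interval of 1.03 to 1.802, which included 1 when taken from 0.5 of the reads (0.907 to 2.02). Mmp10 had 61 reads with Oct4 and SOX2 and 72 in the control, or 1.11 and 1.31 FPKM. Its ratio of 0.849 had an interval of 0.593 to 1.21, so a difference was not detectable at this depth. The quotient of Mmp3 to Mmp13 was 0.997 with Oct4 and SOX2 and 0.368 in the control.

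The gelatinases, which cut basement membrane collagen and denatured collagen, were close to absent. Mmp9 had 4 reads with Oct4 and SOX2 and 14 in the control, and Mmp2 had under 10 in both. Counted together they came to 0.0541 FPKM with Oct4 and SOX2 and 0.180 FPKM in the control. The Mmp9 interval, 0.0686 to 0.911 around a ratio of 0.286, reached past 1 from 0.5 of the reads, at 1.503. Mmp23, a small membrane-anchored MMP, had 10 reads with Oct4 and SOX2 and 54 in the control, at 0.134 and 0.723 FPKM. Its ratio of 0.186, with an interval of 0.0842 to 0.368, was the lowest among members with at least 10 reads in 1 library, but its level was under 1 FPKM in both, so it is not among the 14.

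**Figure D2:**
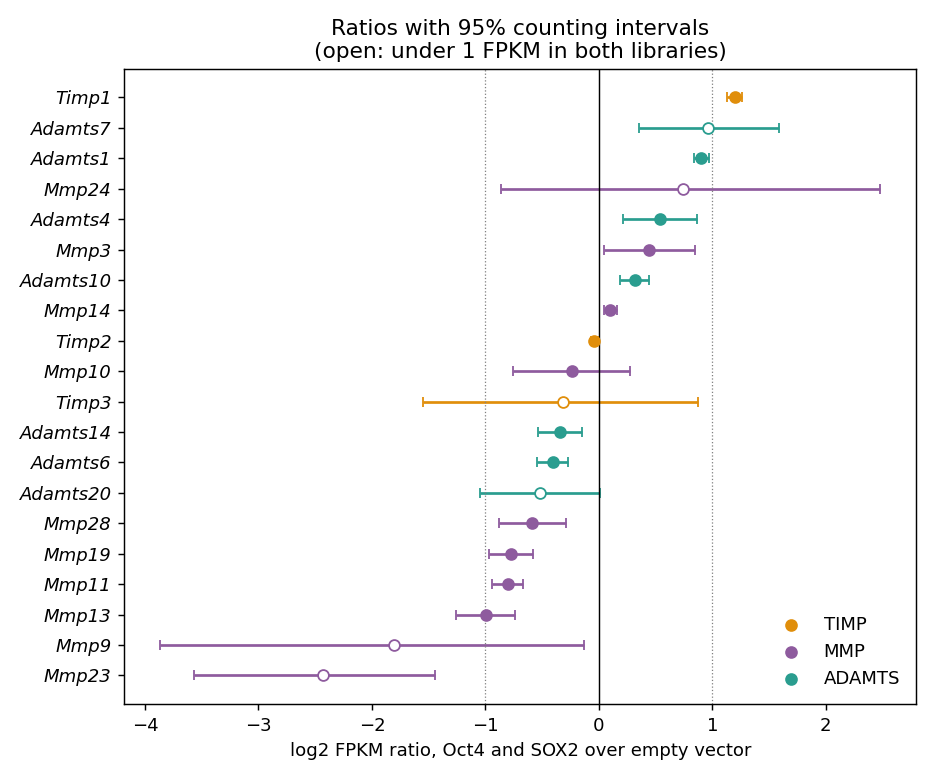
Log2 FPKM ratios (Oct4 and SOX2 over empty vector) for the 20 members with at least 10 reads in 1 library. Bars are 95% counting intervals from the recovered reads, open points are members under 1 FPKM in both libraries, and dotted lines mark 2-fold. Timp1 lies with its whole interval past the upper line, and Mmp23 with its whole interval past the lower one.

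A run of MMP genes lies together on chromosome 9, from 7272514 to 7699585 in GRCm38. It holds 9 of the members, in the order Mmp13, Mmp12, Mmp1b, Mmp3, Mmp10, Mmp8, Mmp27, Mmp20 and Mmp7. Of these Mmp13, Mmp3 and Mmp10 were expressed, with ratios of 0.502, 1.36 and 0.849. Mmp1b and Mmp27 had under 10 reads in both. The macrophage elastase gene Mmp12, the neutrophil collagenase gene Mmp8, the enamel protease gene Mmp20 and the matrilysin gene Mmp7 had 0 reads in both libraries. Neighbours in this run thus stood at different ratios, and 6 of the 9 genes had under 10 reads in both libraries.

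A promoter entry was found for 31 of the 45 members, 10 of them expressed. Over all 31, TGANTCA, the AP-1 motif, was present in 7 promoters, all of them of genes in the chromosome 9 run. Among them were those of Mmp12, Mmp1b, Mmp20 and Mmp7, which were not expressed. Among the 10 expressed members the motif was in 3, those of Mmp13, Mmp3 and Mmp10. It was in 7.81% of the 32851 mouse promoters of the same length. In Mmp13 the match TGACTCA ran from -35 to -29 relative to the RefSeq start, in Mmp3 TGAGTCA from -46 to -40, and in Mmp10 TGAGTCA from -63 to -57. Each of the 3 also held TATAAA between the AP-1 match and the start, a motif found in 13.6% of all promoters. The Adamts1 promoter had TATAAA from -32 to -27 and no TGANTCA in this window. In Timp1 the variant TGAGTAA, searched after the sequence had been seen and present in 2.68% of all promoters, ran from 27 to 33 after the start. AGGAAG was in 4 of the 10, with 3 matches in Timp1 and 2 in Mmp13, and in 35.4% of all promoters. The ETS core GGAA was in 9 of the 10 and in 96% of all promoters, and the SOX motif ACAANG in 4 of the 10, Timp1 and Adamts1 among them, and in 41.2% of all. The POU octamer ATGCAAAT and the NF-kB motif were in 0 of the 10, beside 1.74% and 1.63% of all promoters. These matches describe the letters of the windows. The 3 expressed genes with TGANTCA had ratios on both sides of 1. The Mmp10 interval included 1, as did that of Mmp3 from 0.5 of the reads.

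Among the 5 expressed ADAMTS genes, Adamts1 had the highest level in both libraries and the highest ratio. It encodes a secreted protease that cuts the proteoglycans versican and aggrecan and is known as an early inducible gene. Its level was 33.4 FPKM with Oct4 and SOX2 and 17.8 FPKM in the control, from 5636 and 3018 reads. The ratio of 1.87 had an interval of 1.79 to 1.96, short of 2-fold, and from 0.5 of the reads the interval was 1.76 to 1.99. Adamts1 (ENSMUSG00000022893) lies on the minus strand of chromosome 16 from 85793827 to 85803113, with 9 exons in its principal transcript, and overlaps no other gene of the table. Adamts5, the aggrecanase gene near it on chromosome 16, had under 10 reads in both libraries. Adamts1 made up 70.8% of the summed ADAMTS level with Oct4 and SOX2 and 56.8% in the control.

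Adamts4, another aggrecanase gene, was at 1.26 FPKM with Oct4 and SOX2 and 0.866 FPKM in the control, from 193 and 133 reads, a ratio of 1.45 (1.16 to 1.83). The 7 proteoglycan-cleaving ADAMTS genes together came to 34.8 FPKM with Oct4 and SOX2 and 19.0 FPKM in the control. Adamts10, whose protein binds fibrillin microfibrils, was at 6.54 and 5.26 FPKM, from 1136 reads with Oct4 and SOX2 and 915 in the control, a ratio of 1.24 (1.14 to 1.36).

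The other expressed ADAMTS genes lay lower with Oct4 and SOX2. Adamts6, a relative of Adamts10, was at 3.01 FPKM with Oct4 and SOX2 and 3.99 FPKM in the control, from 747 and 993 reads, a ratio of 0.754 (0.684 to 0.829). Adamts14, a procollagen N-propeptidase gene, was at 2.36 FPKM with Oct4 and SOX2 and 2.98 FPKM in the control, from 390 and 495 reads, a ratio of 0.789 (0.689 to 0.903). The other procollagen N-propeptidase genes, Adamts2 and Adamts3, had 0 reads in both libraries.

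Below 1 FPKM, Adamts7, whose protein cuts the cartilage protein COMP, had 68 reads with Oct4 and SOX2 and 35 in the control, a ratio of 1.95 (1.28 to 3.02). Adamts20 had 53 and 76 reads, a ratio of 0.699 (0.482 to 1.01). Adamts7 shares 122 exonic bases with Tbc1d2b, which had 756 reads with Oct4 and SOX2 and 824 in the control. Adamts13, the von Willebrand factor protease gene, and Adamts8, Adamts12, Adamts17 and Adamts19 had under 10 reads in either library, as did Mmp21, and Adamts9, Adamts15, Adamts16 and Adamts18 had 0 in both. For the 12 members at 0 in both, the 3-read floor allows up to 0.00626 to 0.0882 FPKM with Oct4 and SOX2 and 0.00625 to 0.0880 FPKM in the control, depending on gene length.

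By counting error alone, the interval lay above 1 for 6 of the 14 expressed members and below 1 for 7, with Mmp10 the exception. This is common in libraries of this depth: the interval was above 1 for 34.3% and below 1 for 37.6% of protein-coding genes. From 0.5 of the reads it was above 1 for 5 members and below 1 for 6, beside 28.9% and 32.3% of protein-coding genes. An interval that leaves out 1 therefore says that these libraries differ, not that the cultures would differ again.

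Proteases and inhibitors were set against each other by summed level. All MMP and ADAMTS transcripts came to 92.4 FPKM with Oct4 and SOX2 and 86.3 FPKM in the control, with counting SDs of 0.796 and 0.805 FPKM. All TIMP transcripts came to 359 and 233 FPKM, with counting SDs of 3.03 and 2.15 FPKM. The quotient of summed protease to summed TIMP level was thus 0.258 with Oct4 and SOX2 and 0.371 in the control, the first 0.695 times the second. It compares transcript sums and does not measure inhibition. ADAMTS genes made up 47.1 FPKM of the protease sum with Oct4 and SOX2 and 31.4 FPKM in the control. Timp3, the TIMP known to block several ADAMTS enzymes, had 12 reads with Oct4 and SOX2 and 15 in the control. For MMPs alone the quotient was 0.126 against 0.236, and for ADAMTS genes 0.131 against 0.135. The summed TIMP level exceeded that of the proteases in both libraries, by 3.88-fold with Oct4 and SOX2 and 2.70-fold in the control.

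These sums rest on few genes. Without Timp1 the TIMP sum was 129 FPKM with Oct4 and SOX2 and 132 FPKM in the control, a ratio of 0.971 in place of 1.54, so the direction turned. Against Timp2 alone, the protease quotient was 0.719 with Oct4 and SOX2 and 0.652 in the control. Without Adamts1 the ADAMTS sum was 13.8 and 13.6 FPKM, a ratio of 1.01. Without Mmp14 the MMP sum was 18.5 FPKM with Oct4 and SOX2 and 29.9 FPKM in the control, a ratio of 0.618 in place of 0.824. In reads not divided by gene length, the quotient with Oct4 and SOX2 was 0.977 times that in the control, where Timp2, with 3896 bases, weighs more than Timp1, with 888.

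By median, the 12 expressed proteases stood at a log2 ratio of FPKM + 1 of -0.19 and the 2 expressed TIMPs at 0.57, beside -0.01 over all protein-coding genes. The 7 MMPs had a median of -0.36, between -0.75 for Mmp13 and 0.29 for Mmp3. The 5 ADAMTS genes had a median of 0.27, between -0.32 for Adamts6 and 0.87 for Adamts1. With a filter of 5 FPKM the protease median was 0.10, and without a filter the TIMP median was -0.016, so the direction of both medians depends on which low genes are counted.

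**Figure D3:**
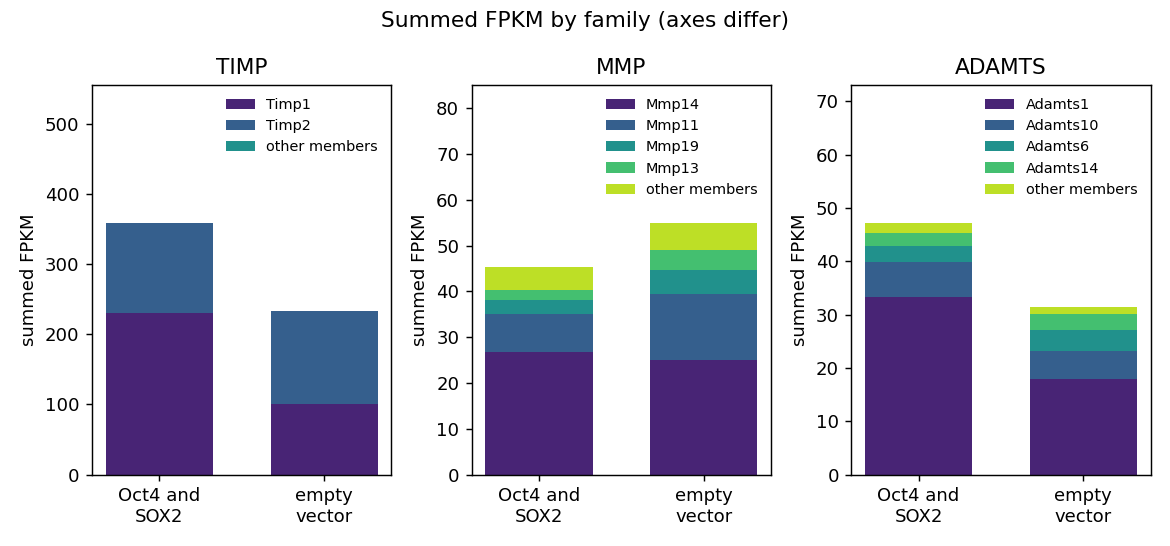
Summed FPKM of all TIMP, MMP and ADAMTS genes in the Oct4 and SOX2 library (left bar) and the empty-vector control (right bar), stacked by gene, with axes that start at 0 and differ between families. Timp1 accounts for the taller TIMP bar and Adamts1 for the taller ADAMTS bar with Oct4 and SOX2, while the MMP bar is lower at 45.3 against 54.9 FPKM.

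The other genes of the pathway were taken from 7 lists of activators, regulators, relatives and substrates. Of their 86 genes 52 were expressed, 5 at least 2-fold higher with Oct4 and SOX2 and 1 at least 2-fold lower. The share over all protein-coding genes was 1.39% higher and 1.07% lower. Their median log2 ratio was 0.02, beside -0.01 over all protein-coding genes.

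Plasmin, the product of the plasminogen activator system, can activate several MMP precursors. In this system 1 of 4 expressed genes was at least 2-fold higher, beside 1.39% of protein-coding genes. This was Serpinb2, the gene for plasminogen activator inhibitor 2, with 1139 reads in the Oct4 and SOX2 library and 16 in the control, or 15.2 and 0.213 FPKM. The urokinase receptor gene Plaur was at 46.5 FPKM with Oct4 and SOX2 and 50.1 FPKM in the control, while the urokinase gene Plau had 2 reads with Oct4 and SOX2 and 0 in the control. Plat, the tissue plasminogen activator gene, was at 0.9404 and 2.03 FPKM, a ratio of 0.463 (0.387 to 0.551) that missed 2-fold on the FPKM + 1 scale.

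Of the activators, the membrane inhibitor and the clearance receptors, 1 of 9 expressed genes was at least 2-fold higher, beside 1.39% of protein-coding genes. Thbs2, encoding a matricellular protein known to clear MMP2 through the receptor LRP1, was at 181 FPKM with Oct4 and SOX2 and 37.6 FPKM in the control, a ratio of 4.82 (4.70 to 4.93). Lrp1 itself was at 95.8 FPKM with Oct4 and SOX2 and 108.5 FPKM in the control. Reck, the gene for a membrane-anchored MMP inhibitor, was at 1.997 FPKM with Oct4 and SOX2 and 1.84 FPKM in the control, and its interval of 0.918 to 1.28 included 1. Furin, which cuts the precursors of Mmp11, Mmp14 and the ADAMTS proteins, was at 14.7 FPKM with Oct4 and SOX2 and 14.3 FPKM in the control. Bsg, encoding the MMP inducer basigin, was at 304 and 238 FPKM.

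The list of regulators of MMP promoters held AP-1 and ETS genes and Runx2, a regulator of Mmp13 in bone. All 13 were expressed, 3 of them at least 2-fold higher and 1 at least 2-fold lower, beside 1.39% and 1.07% of protein-coding genes. Like the other lists, this one was written with earlier results of these data known. Fos was at 23.0 FPKM with Oct4 and SOX2 and 0.533 FPKM in the control, Fosb at 27.2 and 3.25 FPKM, and Jun at 47.9 and 22.3 FPKM. Fosl1, the most abundant of them in both libraries, was at 73.4 FPKM with Oct4 and SOX2 and 83.4 FPKM in the control. Ets2 was the lower one, at 10.9 and 24.8 FPKM, a ratio of 0.439 (0.416 to 0.462). Runx2 was at 10.2 FPKM with Oct4 and SOX2 and 6.102 FPKM in the control. The expressed members with the AP-1 motif shown in capitals above, Mmp13, Mmp3 and Mmp10, stood at 0.502, 1.36 and 0.849 beside these values. For Mmp10, and for Mmp3 from 0.5 of the reads, the interval included 1. A link between the regulators and these ratios was not tested.

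Among 23 matrix substrates 10 were expressed and 0 passed 2-fold in either direction. Fibronectin, Fn1, was at 342 FPKM with Oct4 and SOX2 and 267 FPKM in the control. The collagen I chain genes lay apart, with Col1a2 at 306 and 185 FPKM and Col1a1 at 39.99 and 62.1 FPKM. Vcan and Acan, the versican and aggrecan genes whose products Adamts1 and Adamts4 cut, had 58 and 4 reads with Oct4 and SOX2, against 66 and 10 in the control.

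**Figure D4:**
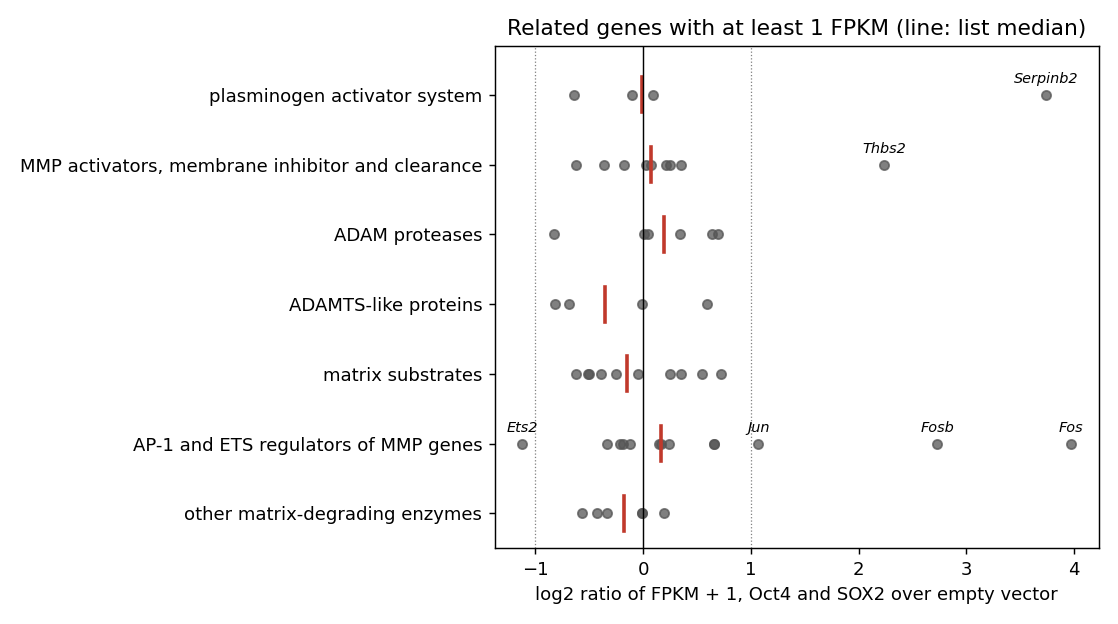
Log2 ratios of FPKM + 1 (Oct4 and SOX2 over empty vector) for the 52 expressed genes of the 7 related lists, 1 point per gene, with the list median as a red line and 2-fold as dotted lines. The genes past 2-fold are named: Serpinb2, Thbs2, Fos, Fosb and Jun to the right and Ets2 to the left.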

How the data were processed

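The RNA libraries came from a NEBNext Ultra kit (per the labels' protocols). The authors deposited 1 table of FPKM values with gene lengths and GRCm38 positions. CASAVA, HISAT2 and featureCounts 1.5.0-p3 are named per the submitters' processing notes. The annotation release, strand setting, rule for multiply matching reads and FPKM formula: not given in the sources used here.

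Reads were recovered from the steps of deposited FPKM times gene length: 100% of values were whole within 0.001 of a read. Genes with 2 reads (2277 with Oct4 and SOX2, 2223 in the control) outnumbered those with 1 (1121 and 1170), as they would if both mates of a pair were counted. Intervals from the reads may then be too narrow, and intervals from 0.5 of the reads are given too. Intervals are exact conditional binomial (Clopper-Pearson) at 95%. They and the 3-read floor cover counting error only. If both mates were counted, the 3-read floor and the counting SDs of the sums would be too low as well.

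Differences are log2 ratios of FPKM + 1 among genes reaching 1 FPKM in either library, or plain FPKM ratios where so called. The size rule was 2-fold. No test across samples and no batch check was possible with 1 library per group, and p-values were not computed. Named were all members with at least 1 FPKM or 10 reads and, from each related list, up to 3 genes per direction past 2-fold, or the 2 most expressed where none passed; other genes of the lists were chosen after their values were seen. Members, lists and rules were chosen with earlier results of these data known. GENCODE M21 (GRCm38) gave exons: all 45 members were in it, 44 at the same coordinates. Promoter sequences are from RefSeq. Alternatives changed the pseudocount, filter, scaling, size rule and the genes summed. Steps were tested on simulated counts. Software was matplotlib 3.10.9, pandas 2.3.3, scipy 1.17.1, numpy 2.4.6 and Python 3.11.15. Some genes of the related lists and overlaps are not reported here.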

Additional observations from a re-analysis of the deposited data

How the results depend on the processing

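Among members that passed each filter on low values, Timp1 was the 1 at least 2-fold higher under every pseudocount, filter and scaling run and by its counting interval. At 4-fold 0 members were higher. Of these members 0 were at least 2-fold lower under any of these settings; Mmp23, under 1 FPKM, was left out of the count by interval. None of the 14 members with at least 1 FPKM changed sign under the 5 pseudocount and scaling alternatives, but these could not have changed it. A pseudocount added to both libraries cannot turn the sign. The scalings moved log2 ratios by at most 0.032, and the log2 ratio smallest in size, that of Timp2, was -0.041. Of the related genes 3 were at least 2-fold lower with a pseudocount of 0.1 FPKM and 0 with 5 FPKM, against 1. With a filter of 5 FPKM the protease median was 0.10, and with no filter the TIMP median was -0.016, as fewer or more low genes enter. Ratios of summed FPKM depended on which genes were summed. Without the most abundant member of each family they were 0.618 for MMP, 1.01 for ADAMTS, 0.742 for all proteases and 0.971 for TIMP genes, and 0.764 for the protease to TIMP quotient. In reads not divided by length they were 0.900 for MMP, 1.14 for all proteases, 1.17 for TIMP genes and 0.977 for the quotient. Leaving out proteases that overlap another gene gave 0.978 for MMP, 1.23 for all proteases and 0.796 for the quotient. Rescaling moved the TIMP ratio to 1.58 without the 50 highest genes and to 1.57 with plain read totals. Adding Reck to the inhibitors left the quotient ratio at 0.696. No paired analysis was possible because each group has 1 library. Depth limits the members under 10 reads, where a several-fold difference could not be seen.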

Other observations

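Some relatives of these proteases outside the named families also differed in level. The ADAM, ADAMTS-like and other matrix-degrading enzyme lists had no gene past 2-fold on the FPKM + 1 scale. Of the ADAM proteases, membrane-bound enzymes that shed surface proteins, 6 of 10 were expressed. Of these 5 had a log2 ratio of FPKM + 1 above 0, beside 48.4% of protein-coding genes. That count includes Adam15 and Adam17, whose intervals, 0.977 to 1.09 and 0.943 to 1.07, included 1. Adam9 was at 81.3 FPKM with Oct4 and SOX2 and 63.7 FPKM in the control, and Adam10, the main Notch and cadherin sheddase gene, at 24.1 and 15.1 FPKM. Adam8 was at 2.62 and 1.24 FPKM and Adam33 at 5.38 and 10.3 FPKM, both chosen after their values were seen.

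The ADAMTS-like genes encode matrix proteins that resemble ADAMTS enzymes but lack the protease domain. Of 7, 4 were expressed, with Adamtsl5 at 12.5 FPKM with Oct4 and SOX2 and 12.6 FPKM in the control, and Adamtsl4 at 7.78 and 4.81 FPKM. Adamtsl3 and Thsd4, chosen after their values were seen, lay at ratios of 0.512 (0.473 to 0.553) and 0.554 (0.519 to 0.592). Of 12 other matrix-degrading enzymes 6 were expressed and 5 of these had a log2 ratio below 0, beside 51.6% of protein-coding genes. That count includes Bmp1 and Hpse, whose intervals, 0.938 to 1.06 and 0.943 to 1.05, included 1. The lysosomal protease genes Ctsl and Ctsb were at 201 and 112 FPKM with Oct4 and SOX2, against 298 and 150.4 FPKM in the control.

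In the marker lists 1 colon epithelial gene was at least 2-fold higher and 1 fibroblast gene at least 2-fold lower. Of all protein-coding genes 1.39% were at least 2-fold higher and 1.07% at least 2-fold lower. Cdh17, an intestinal cadherin gene, was at 6.54 FPKM with Oct4 and SOX2 and 0.938 FPKM in the control. Of the 4 expressed colon epithelial markers, 2 had a log2 ratio above 0 and 2 below it. The shares of protein-coding genes were 48.4% and 51.6%. Krt20 was at 28.3 FPKM with Oct4 and SOX2 and 14.9 FPKM in the control. Krt18 was at 11.3 and 15.2 FPKM, and Lgals4 at 1.87 and 1.89 FPKM. Krt8, under 1 FPKM, had 2 reads with Oct4 and SOX2 and 21 in the control. Pdgfrb, a fibroblast and pericyte receptor gene, was at 4.93 FPKM with Oct4 and SOX2 and 14.1 FPKM in the control. Of the 5 expressed fibroblast markers, 2 had a log2 ratio above 0 and 3 below it. The 8 bone and cartilage markers, cell types known for Mmp13, summed to 14.7 and 13.6 FPKM. Runx2 and Sox9 were the 2 expressed, with ratios of 1.67 and 0.600. Macrophage markers summed to 21.6 FPKM with Oct4 and SOX2 and 27.3 FPKM in the control, most of it Cd14 and Cd68. Under 1 FPKM the list was mixed. Mrc1 had 115 reads with Oct4 and SOX2 and 27 in the control, and Csf1r 11 and 0. Lyz2 had 24 reads with Oct4 and SOX2 and 34 in the control, and Aif1 0 and 5.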
